A study of Mus musculus with 2 samples.

Results

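Mir191 and Mir425 are 2 miRNA genes that lie side by side on the plus strand of mouse chromosome 9. They were selected by gene symbol from the 2202 miRNA genes counted in the left cerebral cortex, and both were measured in both libraries. The tissue came from 2 female B6CASTF1/J mice aged 2 months, an F1 cross of C57BL/6J with CAST/EiJ, a strain derived from wild mice. MicroRNA-seq counts RNA shorter than 30 nucleotides. There was 1 library per animal, no treatment and a single group, so no contrast was tested. The labels number the mice female 03 (animal 1 here) and female 04 (animal 2), but both carry 1 shared donor identifier.

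A miRNA is cut from a hairpin in a longer transcript, and its seed, bases 2 to 8, largely sets which messenger RNAs it represses. Mir191 and Mir425 are made from a shared primary transcript and are widely expressed in mammalian tissues. In human and mouse their host is usually given as Dalrd3, which encodes a protein that assists methylation of arginine transfer RNA. miR-191 has been tied to remodelling of dendritic spines in neurons. miR-425 is known as a repressor of the natriuretic peptide gene NPPA in human.

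The sequences below, from RefSeq on GRCm38.p6, show that the pair shares no seed, so their counts belong to different miRNAs. All are written 5′ to 3′ with the seed in capitals. The counts are per gene and do not separate the 5p arm from the 3p arm.
mmu-miR-191-5p: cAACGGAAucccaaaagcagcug
mmu-miR-191-3p: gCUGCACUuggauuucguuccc
mmu-miR-425-5p: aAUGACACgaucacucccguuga
mmu-miR-425-3p: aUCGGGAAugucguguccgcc
mmu-miR-489-3p: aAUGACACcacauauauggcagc
Of the 1738 mature sequences in the RefSeq table, only miR-489-3p shares a seed with either member, that of miR-425-5p. Mir489 had 0 counts in both animals, which allows up to 0.679 CPM in animal 1 and up to 1.32 CPM in animal 2, the level of 3 counts. CPM here is the count of a gene per 1000000 reads counted at miRNA genes, and these limits cover counting error only.

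The hairpins follow with their mature arms in capitals, since the position of the arms matters for the strand counts. The Mir191 hairpin has 74 bases and lies at chr9:108568319-108568392, and that of Mir425 has 85 bases and lies at chr9:108568777-108568861, both on the plus strand of mm10.
Mir191: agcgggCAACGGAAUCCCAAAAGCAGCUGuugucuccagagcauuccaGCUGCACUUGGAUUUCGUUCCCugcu
Mir425: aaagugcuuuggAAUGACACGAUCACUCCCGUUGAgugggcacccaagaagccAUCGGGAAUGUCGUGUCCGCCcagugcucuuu
The 2 hairpins start 458 bases apart. Their GC contents were almost equal, 54.05% for Mir191 and 54.12% for Mir425, against a median of 52.4% over the 415 detected miRNA genes, which are those that reached 2 CPM in each library. Each sequence taken in its own 5′ to 3′ direction, neither hairpin shares a stretch of 22 bases with another annotated miRNA hairpin, whereas 69 of the 415 detected genes do. In that direction, the longest stretch shared with another hairpin was 10 bases for miR-191-5p, miR-191-3p and miR-425-5p. For miR-425-3p it was 8 bases. Among GENCODE M21 transcripts read the same way, each of the 4 mature sequences was found whole in only 2 genes. These were its own gene and the long noncoding RNA gene that spans the locus. The complement of both miR-191 arms lies whole in Gm24083, a predicted miRNA gene on the other strand. Multimapping reads, which the tables list apart from the genes, made up 48.9% and 48.2% of what mapped in animals 1 and 2. The genome outside these transcripts was not searched, so the part of Mir191 and Mir425 reads among the multimapping reads was not measured.

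The annotation that the counts rest on does not place the pair inside Dalrd3. In M21 both hairpins lie in 4833445I07Rik (ENSMUSG00000103103.1), a long noncoding RNA gene at chr9:108567533-108569174 on the same strand. Its first transcript is a single exon that covers both hairpins. Its second transcript is spliced: Mir191 (ENSMUSG00000105497.1) falls in its intron, and Mir425 (ENSMUSG00000065579.1) starts 3 bases past its end. Dalrd3 starts at position 108569886 in M21, 1025 bases past the end of Mir425. In RefSeq the Dalrd3 gene starts at 108567484, 835 bases before Mir191, and so contains both hairpins. The promoter window that RefSeq gives for Dalrd3 lies 781 bases downstream of Mir425. Whether the pair lies within Dalrd3 therefore depends on the annotation, and small RNA counts do not show which transcript the hairpins came from. Only the span of the RefSeq gene was compared, so whether the hairpins fall in its introns or exons was not examined.

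**Figure D1:**
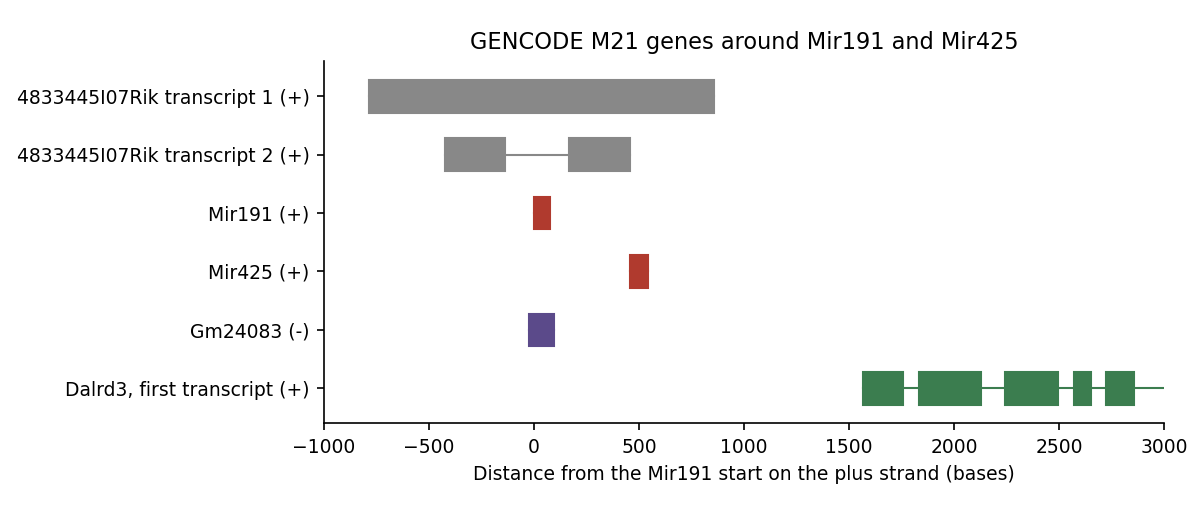
Genes around Mir191 and Mir425 in GENCODE M21, by distance in bases from the Mir191 start (x axis). Boxes are exons or hairpins, lines are introns, and signs give the strand. Both hairpins lie within the unspliced 4833445I07Rik transcript, and Dalrd3 starts 1567 bases past the Mir191 start.

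Mir191 was among the most abundant counted miRNAs, and the count of Mir425 was 12.8 ± 1.87 times lower (SD, n = 2) in the same libraries. How evenly different sequences were captured in the libraries was not measured, so ratios and ranks between genes are those of reads and not of molecules. Mir191 had 42073 counts (9528 CPM) in animal 1 and 23096 counts (10132 CPM) in animal 2. Its mean was 9830 ± 427 CPM (SD, n = 2). Mir425 had 2969 counts (672 CPM) in animal 1 and 2005 counts (880 CPM) in animal 2. Its mean was 776 ± 147 CPM (SD, n = 2). The ranges of the 2 genes did not overlap, and both were higher in animal 2 per library total. As shares of gene counts, Mir191 held 0.953% in animal 1, with a 95% interval by the exact Clopper-Pearson method of 0.944 to 0.962%. In animal 2 it held 1.01% (1.00 to 1.03%). Mir425 held 0.0672% (0.0648 to 0.0697%) and 0.0880% (0.0841 to 0.0919%). No molecular identifiers are named in the sources used here, so reads copied by PCR may be counted more than once and these intervals cover counting error only. In bulk tissue, fewer cells of a type and less of the RNA per cell cannot be told apart.

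By mean CPM, Mir191 ranked 21 of 2202 miRNA genes, at 23 in animal 1 and 19 in animal 2. The genes on either side of it were Mir151 at 9969 ± 99.5 CPM and Mir29a, a member of the miR-29 family, at 9212 ± 1131 CPM (SD, n = 2 each). Mir151 was higher than Mir191 in animal 1 and lower in animal 2. Mir29a was lower than Mir191 in both, but the difference of means, 618 CPM, was smaller than its own SD. The order of Mir191 and Mir151 thus changed between the animals. That of Mir191 and Mir29a held in both, though in animal 2 Mir29a had 10012 CPM against 10132 CPM for Mir191. The SD between animals does not measure the spread of an order within a library, and with 2 libraries neither order is settled. Mir425 ranked 106, at 110 in animal 1 and 103 in animal 2. Its neighbours were Mir532 at 895 ± 31.6 CPM and Mir1981 at 758 ± 28.5 CPM. Both lay within 1 SD of Mir425, and each was higher than Mir425 in animal 1 and lower in animal 2.

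The genes most like each member in both libraries were found by distance on the log2(CPM + 1) scale over the 2 libraries. For Mir191 these were Mir151 at a distance of 0.08, Mir29a at 0.18 and Mir149 at 0.27. The levels of Mir149 were 10898 and 11495 CPM. For Mir425 they were Mir673 at 0.29, Mir1981 at 0.33 and Mir326 at 0.44. Mir673, a gene of the imprinted cluster on chromosome 12, had 572 CPM and 777 CPM, so that like Mir425 it was higher in animal 2. Mir1981 and Mir326 were higher in animal 1. With 2 libraries this likeness is mainly one of level.

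**Figure D2:**
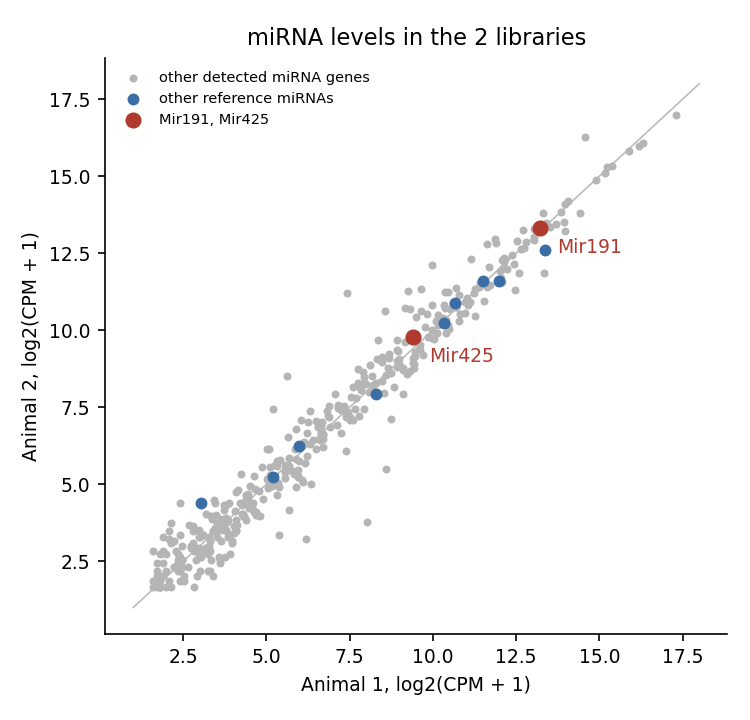
Level of each detected miRNA gene in animal 1 (x axis) and animal 2 (y axis), as log2(CPM + 1), with the line of equal levels. Red points are Mir191 and Mir425, blue points are the other detected miRNAs used as PCR references, and grey points are the rest of the 415 genes. Mir191 lies next to the line, and Mir425 lies slightly above it.

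Within each library the ratio of Mir191 counts to Mir425 counts does not depend on scaling. In animal 1 it was 14.2, with Mir191 holding 93.4% of the pair's 45042 counts (exact interval 93.2 to 93.6%). In animal 2 it was 11.5, with 92.01% of 25101 counts (91.7 to 92.3%). Mir191 therefore led in both animals, with a mean log2 ratio of 3.67 ± 0.21 (SD, n = 2). The log2 ratio was 0.30 higher in animal 1, with a 95% interval from the conditional odds ratio of 0.21 to 0.38. That interval covers counting error only, and with 1 library per animal a difference between animals and one between library preparations cannot be told apart. Together the 2 genes held 1.02% of counts in animal 1 (1.01 to 1.03%) and 1.10% in animal 2 (1.09 to 1.11%), or 1.06% ± 0.0573 (SD, n = 2).

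Uneven counts are common among miRNA genes that lie next to each other. There were 88 pairs of adjacent miRNA genes on 1 strand with starts within 10 kb and both genes at 2 CPM or more in both libraries. Of the 87 other pairs, 41 were more uneven than Mir191 and Mir425 and 46 were less uneven. The median absolute log2 ratio of the others was 3.33, against 3.67 for Mir191 and Mir425. Among the 56 other pairs with starts within 1 kb, 23 were more uneven and 33 less uneven, with a lower median of 2.60. Pairs with a hairpin that shares 22 bases with another were also left out. Of the 65 other pairs that remained, 29 were more uneven and 36 less uneven, with a median of 3.29. The pairs are not independent: 42 of the 88 lie on chromosome 12, and a gene inside a cluster belongs to 2 pairs. The pairs closest in unevenness were Mir673 and Mir493 at 3.63 ± 0.19, Mir181a-1 and Mir181b-1 at 3.74 ± 0.45, and Mir667 and Mir376c at 3.75 ± 0.21 (SD, n = 2 each). The 3 most uneven were Mirlet7d and Mirlet7f-1 at 7.81, Mir323 and Mir758 at 8.92, and Mir544 and Mir382 at 10.9. The lower genes of the latter pairs, Mir758 and Mir544, had at most 17 counts in a library. Mirlet7f-1 is of a family with near-identical copies, so its count is uncertain as a level. Among the closest pairs, Mir181a-1 with Mir181b-1 and Mir667 with Mir376c include a hairpin that shares 22 bases with another. Their counts are uncertain in the same way, and Mir181b-1 had only 74 counts in animal 1 and 62 in animal 2.

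The ratio within the pair also differed little between the animals for a neighbouring pair. Its between-animal difference of 0.30 in log2 was exceeded by 58 of the 87 other pairs, whose median absolute difference was 0.53. Mir191 and Mir425 both had a higher CPM in animal 2, and in 46 of the 88 pairs, this one included, both genes had their higher level in the same animal.

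**Figure D3:**
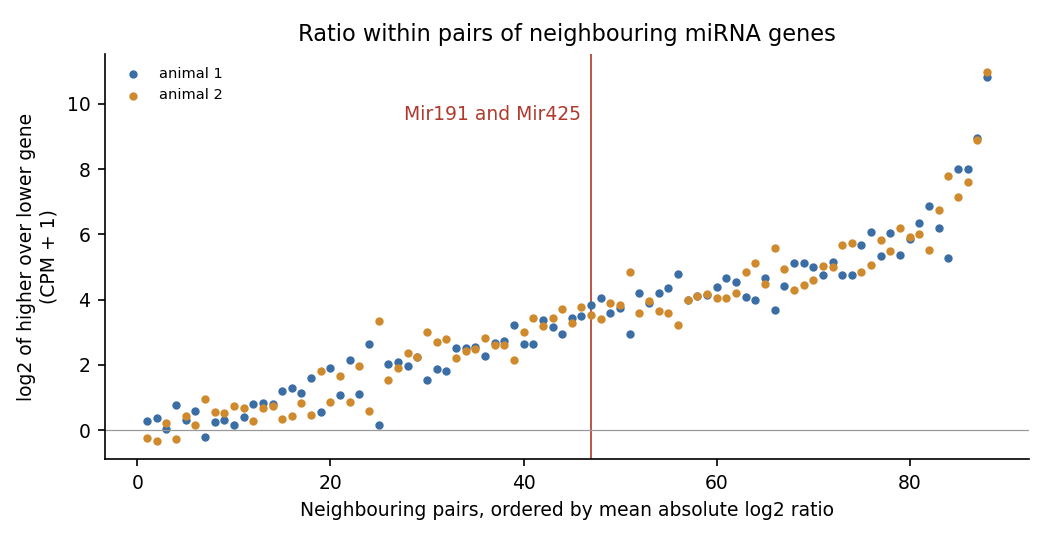
Log2 ratio of the more to the less abundant gene (y axis, CPM + 1) in each of 88 neighbouring miRNA gene pairs, ordered by the mean absolute ratio (x axis). Each pair has a point for animal 1 and one for animal 2. The pair of Mir191 and Mir425, at the red line, has 46 less uneven pairs to its left and 41 more uneven pairs to its right.

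Between the animals Mir191 differed by a factor of 1.06 and Mir425 by 1.31, both higher in animal 2. The log2 ratio of animal 1 over animal 2 was -0.09 for Mir191, with a counting interval of -0.11 to -0.07. For Mir425 it was -0.39, with an interval of -0.47 to -0.31. Both intervals leave out 0, which puts both genes outside counting error. Of all 415 detected genes 56.6% were outside counting error: 27% were higher in animal 1 and 29.6% in animal 2. At these depths the rule calls most genes: it called 90% of the 100 genes whose mean reached 1000 CPM, and 80% of the 100 genes between 100 and 1000 CPM. Being outside counting error is therefore no mark of either member.

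The size of the difference tells the members apart better than the call does. Of the 415 detected genes, 68 had a smaller absolute log2 ratio than Mir191 and 236 had a smaller one than Mir425. The median over all of them was 0.32. Among the 100 genes at 1000 CPM or more, 29 were closer between the animals than Mir191. Among the 100 genes between 100 and 1000 CPM, 54 were closer than Mir425. Mir191 thus lay closer between the animals than most abundant genes, and Mir425 near the middle of the genes at its level.

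Total scaling matters for so small a difference as that of Mir191. With TMM factors the log2 ratio was -0.06 for Mir191 and -0.36 for Mir425, and with DESeq2 size factors -0.08 and -0.38. Each stayed higher in animal 2 and outside counting error, as were 28% of detected genes with TMM factors and 29.2% with DESeq2 size factors. Per read sequenced, with uncounted and unmapped reads in the total, both turned higher in animal 1, with log2 ratios of 0.45 and 0.15. In animal 2 unmapped reads were 47.1% of the library, against 23.4% in animal 1.

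Mir191 and Mir425 are both in use as reference miRNAs for quantitative PCR, against which other miRNAs are scaled. A list of 12 genes of miRNAs with that use was compared between the animals, and 11 were detected. The log2 ratio of Mir191, at -0.09, was the third closest to 0 of the 11, after Mir25 at -0.04 and Mir423 at -0.07. Mir25 had only 156 and 83 counts, with an interval of -0.44 to 0.36. Mir423 was measured at 2915 CPM and 3066 CPM. Mir93, which lies in the same cluster as Mir25, was at 0.11, and Mir484 was at -0.21.

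Mir425 came eighth of the 11. It stood between Mir361 at 0.38 and Mir16-1 at 0.39 in absolute size, both of these being higher in animal 1. Mir16-2, the other copy that gives miR-16, was at -0.26 with an interval that includes 0. Mir23a was the highest at 0.76, at 10479 CPM in animal 1 against 6206 CPM in animal 2. Mir103-2 was the lowest at -1.33 with 32 and 45 counts, and Mir103-1, with 1 and 10 counts, was below 2 CPM in animal 1. The Mir16 and Mir103 genes each have a second copy, so their counts are uncertain as levels. Counting error was exceeded by 9 of the 11 detected genes, 4 with the higher level in animal 1 and 5 with it in animal 2, where 56.6% of all detected genes exceeded it, and 80% and 90% of those in the upper ranges of level. The median absolute log2 ratio of the list was 0.26, against 0.32 over all detected genes.

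**Figure D4:**
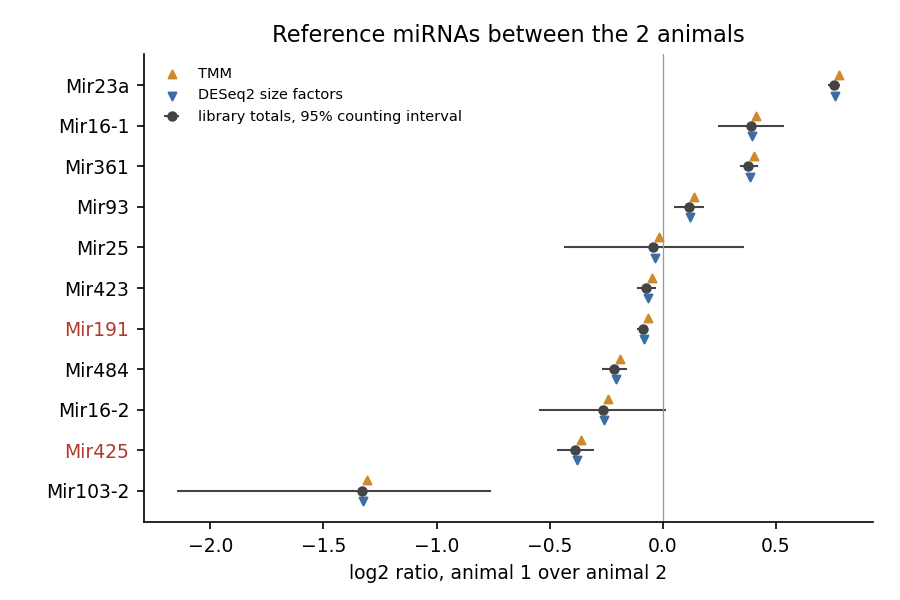
Log2 ratio of animal 1 over animal 2 (x axis) for the 11 detected reference miRNA genes. Black points use library totals, with bars for the exact 95% counting interval, and triangles use TMM or DESeq2 scaling. Mir191 lies close to 0 at -0.09 and Mir425 at -0.39, both left of 0 under each scaling.

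Markers of other cell types also differed between the animals. Blood cells carry both miR-191 and miR-425, so erythroid and leukocyte genes are given here. Of 4 erythroid genes listed 3 were matched and none of these was at 0. Their summed level was 459 CPM in animal 1 against 91.2 CPM in animal 2, with Mir451a, the main red cell miRNA, at 385 and 43.9 CPM. Mir144, the neighbour of Mir451a, was at 40.8 and 9.21 CPM, whereas Mir486 was at 33.5 and 38.2 CPM, inside counting error. Mir3107 overlaps Mir486 on the other strand and had 20 and 11 counts. Whether Mir486 lost reads to multimapping was not measured, so its count is uncertain as a level. All 5 leukocyte and microglia genes were detected. Their sum was 1795 CPM in animal 1 against 2343 CPM in animal 2, led by Mir150, a lymphocyte miRNA, at 1319 and 1668 CPM. Outside counting error were 3 of the 5, all with the higher level in animal 2, against 29.6% of all detected genes. These were Mir150, Mir146 and Mir223. At the level of Mir150 the rule called 90% of genes in either direction, and at that of Mir146 it called 80%. Mir223 had only 12 and 20 counts. Mir142 at 31.7 and 35.1 CPM and Mir155 at 34.9 and 29.8 CPM were inside it. The endothelial Mir126a had 6662 and 9727 CPM. The part of these cells in the difference of Mir191 or Mir425 was not tested.

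Neuronal genes were present, as the tissue label implies. All 13 listed neuron genes had counts and 9 were detected, with a sum of 56031 CPM in animal 1 against 102317 CPM in animal 2. The order of the sums follows Mir132, the most abundant of them, at 24389 and 79576 CPM. Most members went the other way, with a median log2 ratio of 0.51. Of the 9 detected, 6 were outside counting error with the higher level in animal 1 and 2 with it in animal 2. Over all detected genes these shares were 27% and 29.6%, and 90% of genes at 1000 CPM or more were outside it in either direction. The detected Mir9, Mir128 and Mir138 genes are copies within their families, so their counts are uncertain as levels and they are not independent markers. Mir138-1 was at -0.21 and Mir138-2 at 0.23. The 3 copies of Mir124a, a defining neuronal miRNA, were near 0, with 11, 6 and 4 counts in animal 1 and 2, 4 and 0 in animal 2, but near-identical copies make these counts uncertain. Of 5 muscle genes, the 4 copies of Mir1a and Mir133a had 0 counts in both animals, and Mir206 had 19.9 ± 5.18 CPM. Mir1a and Mir133a each have a second copy, so their counts of 0 are uncertain as levels too. The liver gene Mir122 had 48.9 ± 17.02 CPM (SD, n = 2).

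The level of Mir191 rests on the use of strand. The tables count each gene without regard to strand, on the strand of the read and on the opposite strand. M21 also holds Gm24083 (ENSMUSG00000092915.1), a predicted miRNA gene on the minus strand at chr9:108568295-108568414, which covers the whole Mir191 hairpin. Its M21 transcript is printed to show that overlap, with the bases complementary to the Mir191 hairpin in capitals.
Gm24083: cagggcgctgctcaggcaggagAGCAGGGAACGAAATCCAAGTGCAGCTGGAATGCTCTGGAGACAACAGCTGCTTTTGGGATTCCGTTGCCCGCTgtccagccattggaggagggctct
Without regard to strand, Mir191 had 0 counts in both animals. Only in that column did the tables list ambiguous reads. The Mir191 counts equal 15.02% of the 280135 ambiguous reads of animal 1 (exact interval 14.9 to 15.2%) and 15.4% of the 149823 of animal 2 (15.2 to 15.6%).

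The reads at this locus came almost wholly from the Mir191 strand. On its own strand Gm24083 had 2 counts in animal 1 and 0 in animal 2. On the strand opposite to it, which is that of Mir191, it had 42076 and 23096 counts. Gm24083 extends beyond the Mir191 hairpin by 24 bases at one end and 22 at the other. In animal 1 it thus took in 3 more plus-strand reads than Mir191 itself, and in animal 2 it took in none. Counts opposite to Mir191 and to Mir425 were 0 in both animals. Mir425 has no miRNA gene opposite it, and its unstranded counts equalled its stranded ones, 2969 and 2005.

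Losing all counts when strand is ignored was not particular to Mir191. A miRNA gene on the other strand overlaps 64 of the 2202 genes, of which 29 were detected. Of those 29, 28 kept less than 1% of their counts in the unstranded column, and the exception was Mir219a-1, with 2 of 14 counts kept in animal 2. Mir191 had the second highest count among the 28, after Mirlet7e with 133966 and 68123 counts, and before Mir126a with 29419 and 22173 and Mir378a with 18620 and 7579. Read without strand, the pair would appear as Mir425 alone.

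**Figure D5:**
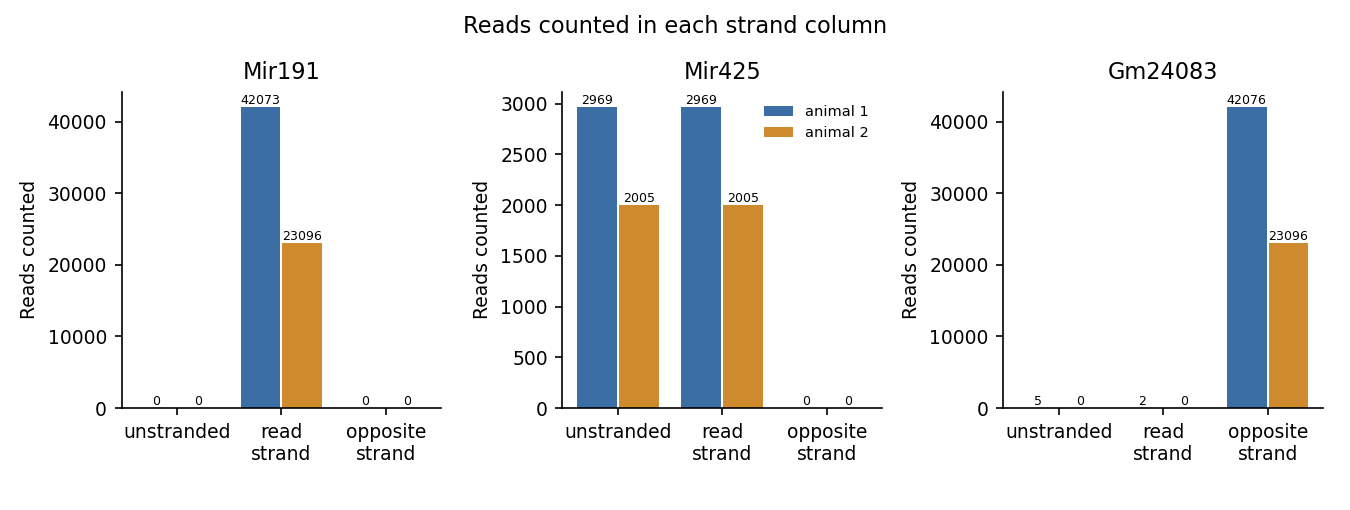
Reads counted (y axis, linear, a scale of its own in each panel) for Mir191, Mir425 and Gm24083 in the unstranded, read-strand and opposite-strand columns. Bars are single libraries, blue for animal 1 and orange for animal 2. Mir191 is at 0 without strand and at 42073 and 23096 with it, while Mir425 is equal in both columns.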

How the data were processed

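The authors deposited 1 table of raw read counts for each library, made on mm10 with GENCODE M21, per the metadata texts they added. No aligner, counter or read filter is named there or in the labels (not given in the sources used here). The 3 count columns carry no header, and their strand roles were read from the values. The 4 summary entries were left out of totals. Counted reads were 4415759 of 13533476 in animal 1 and 2279562 of 10143234 in animal 2.

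CPM used all gene counts, and log values were log2(CPM + 1). Exact Clopper-Pearson 95% intervals and the conditional odds ratio came from scipy 1.17.1. A gene was outside counting error when the interval of animal 1's share of its counts left out the share given by library totals. This rule was checked on simulated counts that held only counting error and planted changes. That check says nothing of variation between animals or library preparations. TMM factors came from edgeR 4.0.16 and size factors from DESeq2 1.42.0. With 1 group of 2 libraries, no differential test was run. The numbered animals are taken as separate samples.

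Symbols came from M21 and sequences from RefSeq (GRCm38.p6), where both members matched. The members and lists were chosen with earlier results of these data known. Named genes were the members, overlapping and host genes, the 3 nearest genes by level, seed sharers, 6 neighbouring pairs, the reference and marker lists, and the 3 other genes with most counts lost without strand. Mir532, a neighbour of Mir425 in rank, and Mir219a-1 were named after their values were seen.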

Additional observations from a re-analysis of the deposited data

Results flagged for a closer look

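Signal lay in a column not used for levels. Gm24083 had 42076 counts in animal 1 and 23096 in animal 2 on the strand opposite to its own, far above the 3 counts that a count of 0 allows. These equal the Mir191 counts but for 3 reads in animal 1, and in both animals only 1 gene had a higher opposite-strand count.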

How the results depend on the processing

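No paired analysis was possible because there is 1 group. Of 56 alternative values, 40 stayed within the spread between libraries, the counting interval or, for counts of genes and pairs, 1.5 times the main count. Some of the 40 could hardly have done otherwise. With 2 libraries, leaving 1 out returns the value of the other, which for a mean always lies within the SD. The other pseudocounts, 0.1 and 5 CPM, are small beside the levels of both members. The 40 are therefore no measure of robustness. In the unstranded column Mir191 had 0 CPM and rank 729, Mir425 had rank 96, the pair held 0.0830% of counts, the log2 of Mir191 over Mir425 was -9.68 and its difference between animals 0.39; these 2 log values depend on the pseudocount, and no ratio between animals could be had for Mir191. Without the most abundant gene in the total, Mir191 had 11514 CPM, the pair held 1.24% and the Mir191 ratio between animals was -0.0361; with TMM factors it was -0.0641. Over all reads, Mir191 had 2693 CPM, Mir425 had 209 CPM and the pair held 0.290%, and the ratios between animals reversed to 0.45 for Mir191 and 0.15 for Mir425, by construction of a total that includes unmapped reads. Neighbouring pairs within 1 kb numbered 57. Leaving out either library gave 9528 to 10132 CPM for Mir191, 672 to 880 CPM for Mir425, 1.02 to 1.10% for the pair, 3.52 to 3.82 for the log2 of Mir191 over Mir425, and ranks of 19 to 23 and 103 to 110. Depth limits Mir425 more than Mir191, with a counting interval of its log2 ratio of -0.47 to -0.31 against -0.11 to -0.07.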
